A study of Mus musculus with 4 samples.

Results

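The genes described here encode the main lysine acetyltransferases of histones, the enzymes that move the acetyl group of acetyl-CoA onto lysines of histone tails. They were chosen by name, with earlier results of these data known. The genes were Ep300, Crebbp, Kat2a, Kat2b, Kat5, Kat6a, Kat6b, Kat7, Kat8 and Hat1. They are 10 genes of the 20197 in the expression table, and all 10 were found in it. RNA-seq had been done on cultured 4T1 cells, which come from a mouse mammary tumor and metastasize to the lung. The cells were WT in genotype, had been stained with 20 nM MitoSpy Red, a dye that gathers in mitochondria with a high mitochondrial membrane potential (MMP), and were then sorted. The high MMP group (n = 2) held the brightest 5% and the low MMP group (n = 2) the dimmest 5%, with RNA from 100000 cells per sample. All samples carried the dye and passed through the sorter, and no unsorted sample was analysed here. The notes of the study count this comparison as independent experiments, and the labels do not say which high and low MMP samples were sorted together.

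Acetylation removes the positive charge of a lysine and creates a docking site for bromodomain and YEATS proteins. The enzymes fall into families. p300 and its paralog CBP (Ep300 and Crebbp) are recruited to enhancers and promoters by transcription factors and acetylate histone H3 at lysine 27. The GNAT family holds GCN5 and PCAF (Kat2a and Kat2b), the interchangeable enzymes of the SAGA and ATAC coactivator complexes, and HAT1, which acetylates newly made histone H4 before it is built into chromatin. The MYST family holds TIP60 (Kat5), MOZ and MORF (Kat6a and Kat6b), HBO1 (Kat7) and MOF (Kat8). They work within complexes of several subunits, and some subunits are shared between complexes. The study asked how mitochondrial activity and the supply of acetyl-CoA relate to histone acetylation in metastatic cells, and the comparison here addresses whether transcripts of the enzymes that use this acetyl-CoA differed between high and low MMP cells.

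Because 6 of the genes are close relatives of another, the transcripts were first compared with each other, to see whether a read could have been counted for the wrong paralog. In the transcripts with the longest coding sequence, the longest stretch shared without a mismatch was 29 bases between Ep300 and Crebbp. It was 19 bases between Kat2a and Kat2b and 35 bases between Kat6a and Kat6b. All are shorter than 75 bases, the number of sequencing cycles in the methods. These stretches are shown in capitals, with 12 bases of each gene on either side in lower case, 5′ to 3′ on the strand of the gene, as read from the GENCODE M21 transcripts of build GRCm38. Each lies within 1 coding exon.
Ep300: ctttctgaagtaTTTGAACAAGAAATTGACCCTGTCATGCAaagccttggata
Crebbp: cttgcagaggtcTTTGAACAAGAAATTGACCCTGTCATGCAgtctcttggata
Kat2a: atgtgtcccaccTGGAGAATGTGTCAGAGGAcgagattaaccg
Kat2b: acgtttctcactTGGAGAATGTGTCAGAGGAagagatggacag
Kat6a: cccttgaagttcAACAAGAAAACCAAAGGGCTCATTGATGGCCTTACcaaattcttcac
Kat6b: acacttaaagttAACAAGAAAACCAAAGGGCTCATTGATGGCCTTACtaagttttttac
The Ep300 stretch lies at chr15:81631785-81631837 on the plus strand and that of Crebbp at chr16:4108052-4108104 on the minus strand. The Kat2a stretch lies at chr11:100711430-100711472 on the minus strand and that of Kat2b at chr17:53624358-53624400 on the plus strand. The Kat6a stretch lies at chr8:22911808-22911866 and that of Kat6b at chr14:21625041-21625099, both on the plus strand. No stretch of 75 bases from any of the 10 genes occurred in a transcript of another of the 10. The reads were paired, so each may have been shorter than 75 bases. Shorter stretches were compared only in the coding sequences above. Outside the family, 3.12% of the 75-base stretches of Kat2b also occurred in the pseudogene Kat2b-ps, and for the other 9 genes the share was at most 0.237%. On the opposite strand, exons of Rnaseh2c cover 12.1% of the exon bases of Kat5 and exons of Prss8 cover 4.22% of those of Kat8; the library kit kept strand, but the strand setting of the counting is not given in the sources used here.

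The values are normalized reads per gene, scaled by the authors so that each library sums to 20000000. The recovered depth was 22591970 to 26395015 reads per library, and between 18643 and 18854 genes were above 0. Of the 6 mammary epithelial markers, 5 were found in the expression table (Krt5 was not). Their summed level was 48361 and 36188 in high and 42071 and 48152 in low MMP cells, most of it from Krt8 and Krt18. Groups were apart for Cdh1, lower in high MMP cells (-0.34, SE 0.12), and for Krt14, higher (0.32, SE 0.10). Neither was called (adjusted p = 0.498 and 0.472 in limma). The endothelial markers found (Pecam1 and Cdh5, but not Kdr or Tek) summed to at most 6.20 normalized reads in any library. The leukocyte markers found were Ptprc, Csf1r and Cd68, but not Lyz2 or Cd3e. They summed to 72.0 and 147 in high and 156 and 105 in low MMP cells, nearly all of it from Cd68. Of the 4 fibroblast markers, Pdgfra and Dcn were found, but not Lum or Col3a1. These 2 genes summed to 328 and 367 in high and 538 and 594 in low MMP cells. Nearly all of it came from Pdgfra, which was called lower by DESeq2 (adjusted p = 0.0399). Their part in the results was not tested. In RNA from sorted bulk cells, fewer cells expressing a gene and less RNA of it per cell cannot be told apart.

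None of the 10 acetyltransferase genes passed a test of high against low MMP cells. In the limma fit, 0 of 10 passed an adjusted p of 0.05, against 0% of all 20197 genes, so this threshold separates nothing in these 4 libraries. At an unadjusted p under 0.05 the members again gave 0 of 10, with 9.96% of all genes passing, and the smallest p of a member was 0.163 (Kat2a). Of the 12902 genes with a mean of 10 or more, as all members had, 369 were higher and 615 lower at this threshold. Count models on the recovered reads called 0 of 10 as well: DESeq2, which called 0.985% of the 11974 genes it tested, and edgeR, which called 0% of 13329. The log2 differences (high minus low MMP) ran from -0.18 to 0.16, 6 above and 4 below 0, with a median of 0.02 beside -0.04 over all genes. This median was below 0 without any 1 of the libraries (-0.08 to -0.01), so its sign is not fixed. The 95% intervals say how large a difference could have been missed: those of all 10 genes stayed within 2-fold in either direction, and those of 9 within 1.5-fold, the exception being Ep300. With 1 library left out the intervals widened, and 7 of 10 stayed within 1.5-fold without either high MMP library, 3 without low MMP 1 and 2 without low MMP 2, while 9 or 10 stayed within 2-fold. With 2 samples against 2, an exact permutation test of a single gene cannot go below p = 0.333.

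**Figure D1:**
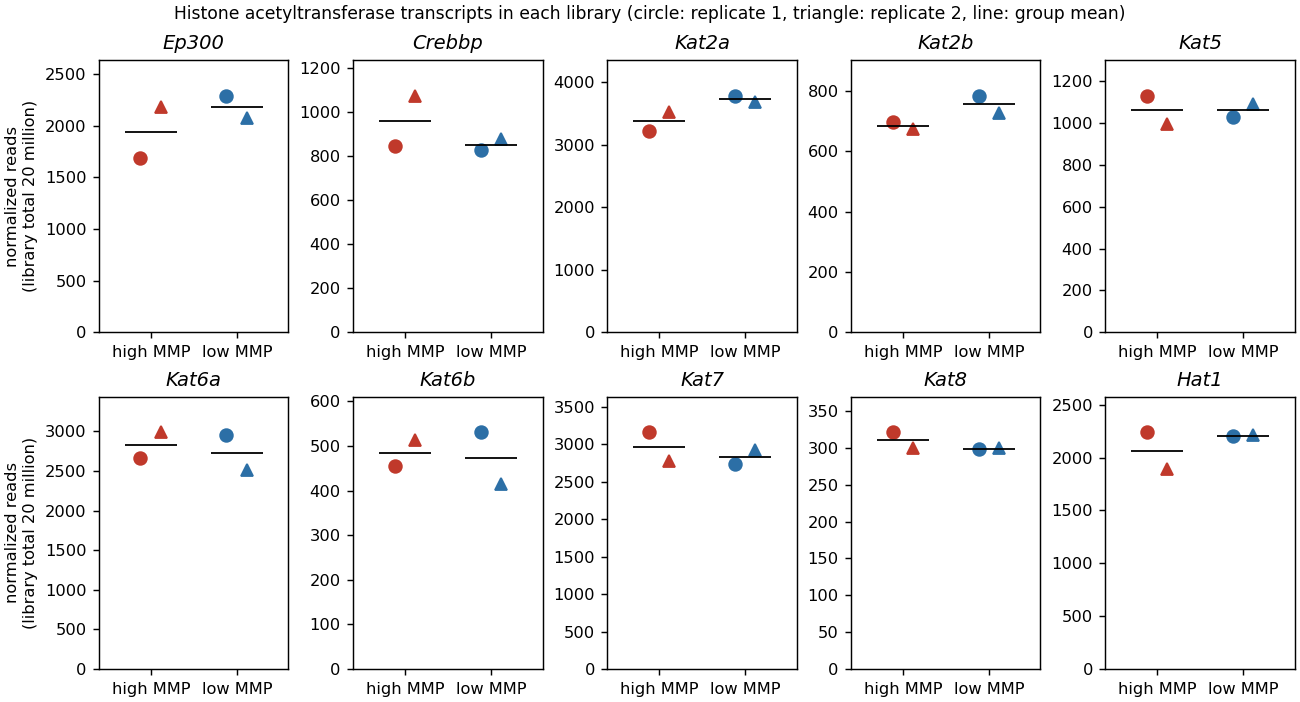
Normalized reads of each acetyltransferase gene in the 4 libraries, 1 panel per gene with its own vertical axis starting at 0; red marks are high and blue marks low MMP cells, circles replicate 1, triangles replicate 2, and lines group means. The 2 groups are apart only for Kat2a and Kat2b, where both high MMP libraries (3224 and 3518, and 696 and 675) lie under both low MMP libraries.

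Ep300 (chr15:81585351-81652077, plus strand), the gene of p300, had 1693 and 2179 normalized reads in high MMP and 2293 and 2075 in low MMP cells. High MMP 1 was the lowest library and the groups overlapped. The difference of -0.18 (SE 0.15, 95% interval -0.60 to 0.23, adjusted p = 0.795) corresponds to a level in high MMP cells between 0.661 and 1.17 times that in low MMP cells. Crebbp (chr16:4081328-4213997, minus strand), the gene of CBP, had 846 and 1074 in high MMP and 827 and 876 in low MMP cells. Here high MMP 2 stood above the other libraries, again with overlap, and the difference was 0.16 (SE 0.14, 95% interval -0.22 to 0.55, adjusted p = 0.809). The point estimates of the paralogs thus had opposite signs, and both 95% intervals included 0.

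Kat2a (chr11:100704746-100712465, minus strand), the gene of GCN5, had 3224 and 3518 normalized reads in high MMP and 3783 and 3677 in low MMP cells. Kat2b (chr17:53566861-53672720, plus strand), the gene of PCAF, had 696 and 675 in high MMP and 785 and 729 in low MMP cells. In both genes the high MMP libraries lay under the low MMP libraries without overlap. These were the only 2 of the 10 genes whose groups were apart in that direction, while 24.5% of all genes were; 0 of 10 were apart in the other direction, against 13.5% of all genes. The differences were -0.15 for Kat2a (SE 0.09, 95% interval -0.38 to 0.09, adjusted p = 0.699) and -0.14 for Kat2b (SE 0.08, 95% interval -0.37 to 0.09, adjusted p = 0.702). With values scaled to the library total, an increase of Kat2a or Kat2b in high MMP cells by more than 1.06-fold lies outside these intervals. So does a fall to less than 0.766 or 0.773 of the low MMP level. Under median-of-ratios rescaling the differences were -0.11 for Kat2a and -0.10 for Kat2b, so these limits depend on the scaling.

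Hat1 (chr2:71388958-71441622, plus strand) had 2241 and 1890 normalized reads in high MMP and 2204 and 2215 in low MMP cells. The high MMP libraries lay on either side of the low MMP libraries, which were nearly equal. The difference was -0.10 (SE 0.11, 95% interval -0.40 to 0.20, adjusted p = 0.855).

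The 5 MYST genes had the smallest differences of the 10. Kat5 (chr19:5603014-5610237, minus strand), the gene of TIP60, had 1131 and 996 normalized reads in high MMP and 1030 and 1091 in low MMP cells, group means of 1063 and 1060. Its difference was 0.00 (SE 0.10, 95% interval -0.27 to 0.27). Kat7 (chr11:95274259-95310246, minus strand), the gene of HBO1, had 3163 and 2776 in high MMP and 2738 and 2932 in low MMP cells, which differ by 0.06 (SE 0.10). Kat8 (chr7:127912516-127925837, plus strand), the gene of MOF and the member with the fewest reads, had 321 and 299.6 in high MMP and 298 and 300.1 in low MMP cells, which differ by 0.05 (SE 0.10). In each of these 3 genes high MMP 1 was the highest library and the groups overlapped.

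Kat6a (chr8:22859535-22943259, plus strand), the gene of MOZ, had 2660 and 2989 normalized reads in high MMP and 2947 and 2509 in low MMP cells. Kat6b (chr14:21481434-21672478, plus strand), the gene of MORF, had 456 and 514 in high MMP and 531 and 415 in low MMP cells. In both genes the low MMP libraries were further apart than the group means, with low MMP 2 the lowest. The differences were 0.05 for Kat6a (SE 0.12) and 0.04 for Kat6b (SE 0.16, the widest of the 10), and the adjusted p of the 5 MYST genes ran from 0.925 to 0.995.

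**Figure D2:**
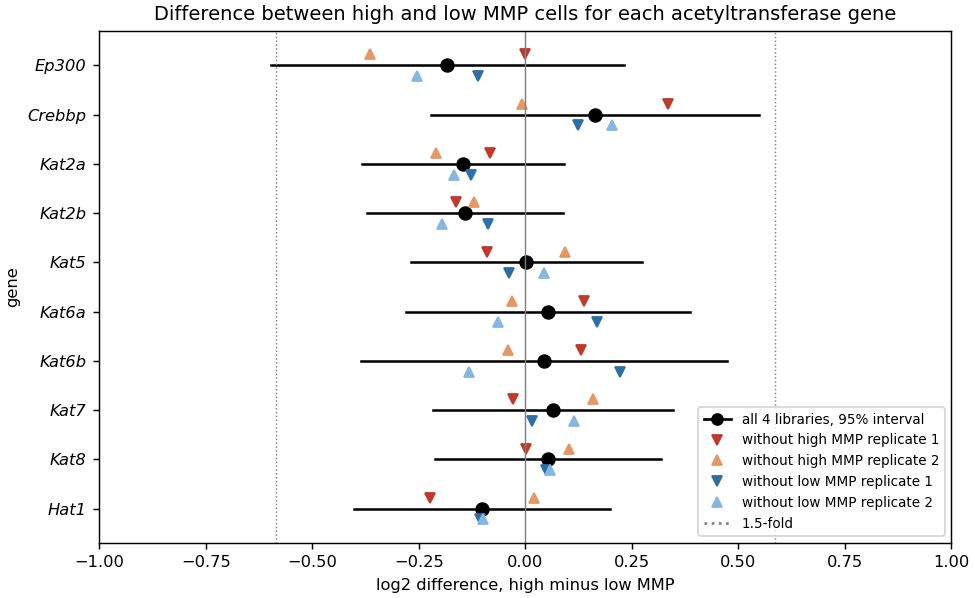
Log2 difference between high and low MMP cells for each gene, with its 95% interval from the fit of all 4 libraries (black), and the difference without each library in turn (triangles; red and orange without a high, blue without a low MMP library); dotted lines mark 1.5-fold. Every interval crosses 0, and for Ep300 the value moves from -0.18 to 0.00 without high MMP 1 and to -0.37 without high MMP 2.

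Single libraries moved these differences. Between the high MMP libraries 8 of the 10 genes differed by more than 1.96 counting standard deviations, as did 69.6% of the 8170 genes with at least the mean level of Kat8, and the widest gap was 0.36 in log2 (Ep300). Between the low MMP libraries 4 of 10 did, beside 40.4% of those genes, and the widest gap was 0.35 (Kat6b). The members thus varied between replicates about as often as other genes of their level. Without high MMP 1, the difference of Ep300 was 0.00, that of Crebbp 0.33 (adjusted p = 0.398) and that of Hat1 -0.22 (adjusted p = 0.391); these last 2 of the 10 genes had an unadjusted p under 0.05, as 11.2% of all genes did. Without high MMP 2, the difference of Ep300 was -0.37 (adjusted p = 0.308), that of Crebbp -0.01 and that of Kat2a -0.21 (adjusted p = 0.285); Kat2a was the 1 gene of 10 with an unadjusted p under 0.05, as 16.6% of all genes had. A lone library was assumed to vary like the others. Leaving out a high MMP library thus moved Ep300 and Crebbp by as much as their differences, and 0 of 10 genes was called without either. The low MMP libraries weighed most on Kat6a and Kat6b: Kat6a was at 0.17 without low MMP 1 and at -0.06 without low MMP 2, and Kat6b at 0.22 and -0.13.

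The direction of this replicate difference tended to follow transcript length. With a cut at 7 kb that was not planned beforehand, the 4 genes with a longer annotated transcript were Ep300, Crebbp, Kat6a and Kat6b. All 4 were lower in high MMP 1 than in high MMP 2, by -0.36 to -0.17 in log2. Of the 6 genes with shorter transcripts, 5 were higher in high MMP 1 and the exception was Kat2a, and their values ran from -0.13 to 0.25. Over the 12877 genes that had a mean of 10 or more and an annotated transcript length, the median of high MMP 1 minus high MMP 2 was 0.16 under 2 kb, 0.00 from 2 to 4 kb, -0.12 from 4 to 8 kb and -0.27 over 8 kb (Spearman rho -0.345 across genes, which are not independent replicates). Between the low MMP libraries the sign was opposite and the relation weaker (rho 0.225), and between the group means it was nearly 0 (rho -0.014). Without high MMP 1 the high minus low difference followed length with the opposite sign to the high MMP replicates (rho 0.238). Its median was then -0.10 under 2 kb and 0.12 over 8 kb. The part of transcript length in the differences of the long genes was not tested.

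**Figure D3:**
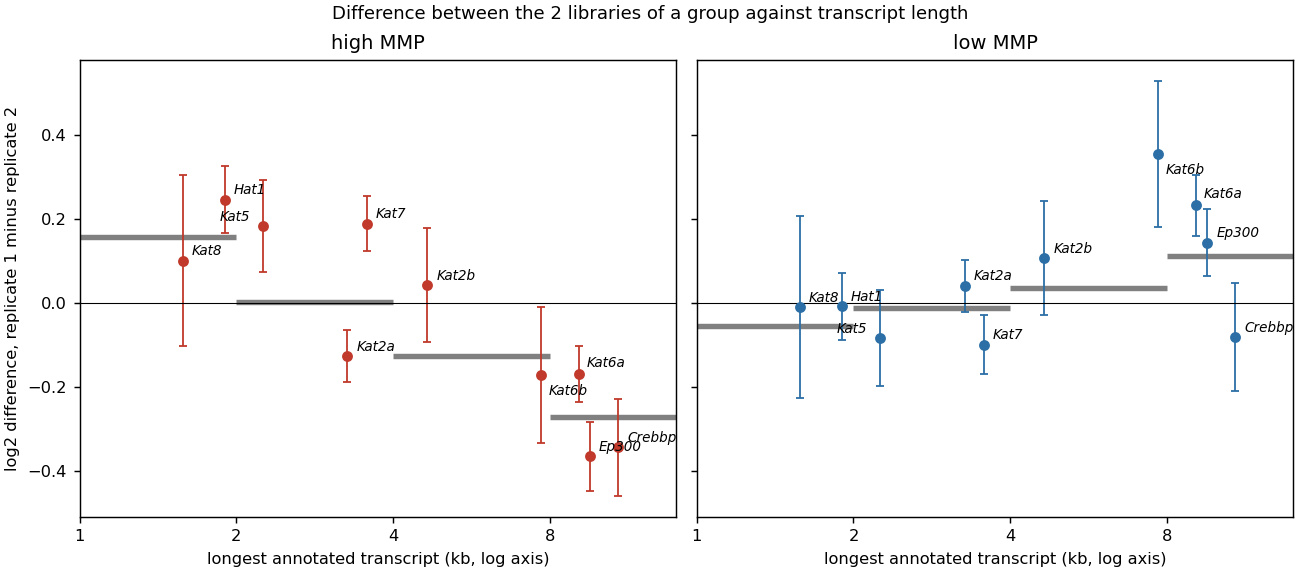
Log2 difference between replicate 1 and replicate 2 of each group against the longest annotated transcript of the gene (log axis), for the 10 genes (points, with 1.96 counting standard deviations) and as the median of all genes in 4 length classes (grey bars). In high MMP cells the 4 long genes lie between -0.36 and -0.17, near grey bars of -0.12 and -0.27.

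The members covered a wide range of levels. Per kilobase of merged exons, Kat2a was the most abundant in normalized reads (1020 ± 69.9 per kb, SD, n = 4), followed by Hat1 (741 ± 57.4), Kat7 (524 ± 34.9), Kat5 (303 ± 17.2) and Kat6a (302 ± 25.1). Lower levels per kb were found for Kat2b (148 ± 9.81), Ep300 (144 ± 18.2), Kat8 (105 ± 3.81), Crebbp (66.9 ± 8.40) and Kat6b (28.5 ± 3.16). The ranges of neighbours in this order overlapped over the 4 libraries for Kat5 and Kat6a and for Kat2b and Ep300, and for no other neighbours. Within each pair of paralogs 1 gene dominated in all 4 libraries: Kat2a over Kat2b, Kat6a over Kat6b and Ep300 over Crebbp. The order partly depends on the length used. Per kb of the longest transcript, Hat1 (1126) stood above Kat2a (1086) with overlapping ranges, and Ep300 (215) and Kat8 (193) stood above Kat2b (155).

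**Figure D4:**
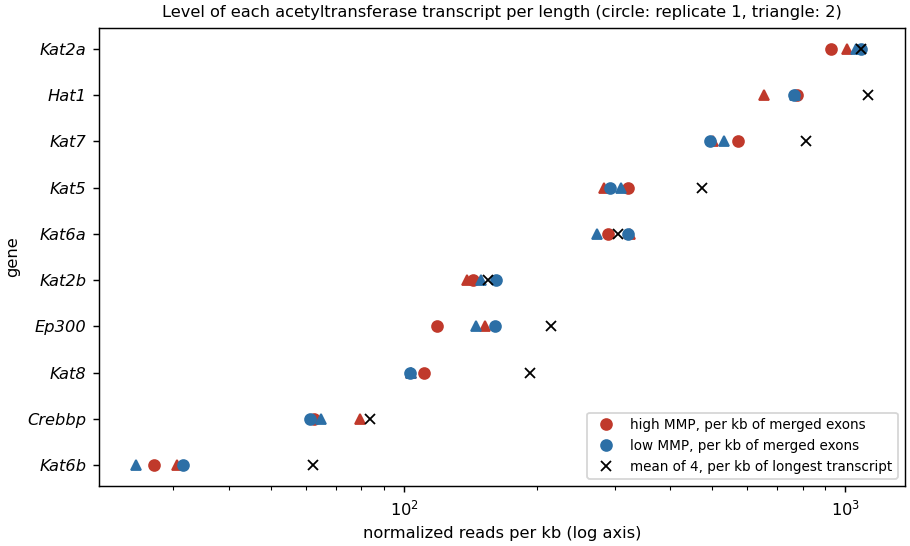
Normalized reads per kb of merged exons (log axis) for each gene in the 4 libraries, with the mean per kb of the longest transcript as crosses. The genes span 28.5 to 1020 per kb, a wider spread than the distance between high (red) and low (blue) MMP libraries of any gene.

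For Ep300, the gene with the largest difference, the genes with the most similar profile over the 4 libraries were Slc25a22, a mitochondrial glutamate carrier, Acp6, a lysophosphatidic acid phosphatase, and Twnk, the mitochondrial DNA helicase. The distance between their centred log2 profiles and that of Ep300 was 0.017, 0.021 and 0.023, among 12901 genes whose mean was 10 or more. All 3 had, like Ep300, their lowest value in high MMP 1 (674 normalized reads for Slc25a22, 402 for Acp6 and 1009 for Twnk) and their highest in low MMP 1 (902, 543 and 1384). With 4 libraries such a likeness is a description only. Among the other members Kat2a came nearest to Ep300, at a distance of 0.187 and rank 1422, while Crebbp was at rank 5794.

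Acetyltransferases act through partner subunits, recruiters and readers, and 96 such genes in 8 lists were taken from textbook roles. Of these, 0 passed the adjusted threshold in limma, edgeR or DESeq2 in either direction. At an unadjusted p under 0.05, 3 were higher in high MMP cells (Jade2, Esco2 and Mllt3). Another 7 were lower (Tada2b, Meaf6, Mbtd1, Brpf1, Chaf1a, Chaf1b and Naa40). These were 10 of 96 where 9.96% of all genes passed. Of the 12902 genes with a mean of 10 or more, as 93 of the 96 had, 369 were higher and 615 lower. The smallest adjusted p of any of the 96 was 0.472 in limma, 0.339 in edgeR and 0.173 in DESeq2. The median difference was -0.05 in log2, beside -0.04 over all genes, with 32 values above and 64 below 0. Groups did not overlap for 28 lower genes (24.5% of all genes) and for 6 higher genes (13.5% of all genes). The 95% interval stayed within 2-fold for 91 of the 96 and within 1.5-fold for 79.

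Of the 11 genes listed as partners of p300 and CBP, 0 had an unadjusted p under 0.05, where 9.96% of all genes passed. Among those with a mean of 10 or more, the largest difference in each direction belonged to Cited2, a p300 and CBP binding regulator (4727 and 3330 normalized reads in high, 3219 and 3855 in low MMP cells; 0.17, SE 0.21), and Crtc3, a coactivator of CREB (593 and 753 against 811 and 760; -0.23, SE 0.14). High MMP 1 was the extreme library in both. Cited2 was at -0.08 without high MMP 1 and at 0.42 without high MMP 2, and Crtc3 at -0.06 and -0.40. Of the 24 SAGA and ATAC subunits, which work with Kat2a and Kat2b, 17 had a negative difference, as had 58.6% of all genes, and the median was -0.08 (-0.01 without high MMP 1). Tada2b, an adaptor of SAGA, had 827 and 954 in high and 1093 and 1127 in low MMP cells (-0.32, SE 0.10). Usp22, the SAGA deubiquitinase, had 3867 and 3608 against 3462 and 3686 (0.06, SE 0.09). Usp22 was at 0.01 without high MMP 1 and at 0.11 without high MMP 2. The groups were apart for Tada2b and overlapped for Usp22.

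Of the 17 partners of TIP60 in the NuA4 complex, 2 were lower at an unadjusted p under 0.05, Meaf6 and Mbtd1. Over all genes, 9.96% passed in either direction. Meaf6, which also belongs to the MOZ and HBO1 complexes, had 497 and 515 normalized reads in high and 614 and 611 in low MMP cells (-0.28, SE 0.08). Ing3, a reader of methylated histone H3 in that complex, gave the largest positive value, 703 and 636 against 605 and 619 (0.13, SE 0.09). Ing3 was at 0.06 without high MMP 1 and at 0.20 without high MMP 2. The 9 partners of MOZ, MORF and HBO1, which are scaffolds, ING proteins and again Meaf6, had a median of -0.16 (-0.05 without high MMP 1). Their values were negative in 8, as were those of 58.6% of all genes. The 1 positive value was that of Jade2, an HBO1 scaffold, with 1926 and 2148 in high and 1649 and 1717 in low MMP cells (0.27, SE 0.09), while Brpf1, a scaffold of MOZ, was at -0.27 (SE 0.10, named after its value was seen). Ing4 had the most negative value of the list, -0.80 (SE 0.37), on few reads (13.6 and 15.1 against 34.0 and 19.5). Ing4 was at -0.42 without low MMP 1 and at -1.19 without low MMP 2. Of its exon bases, 34.9% lie within the same-strand gene Gm44597.

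Of the 11 MSL and NSL subunits, which work with MOF, 0 had an unadjusted p under 0.05, where 9.96% of all genes passed. Phf20 had 1735 and 1703 normalized reads in high and 1658 and 1597 in low MMP cells (0.08, SE 0.07). Msl1, the MSL scaffold, had 1590 and 1977 against 2230 and 2044 (-0.27, SE 0.14). Msl1 was at -0.11 without high MMP 1 and at -0.42 without high MMP 2. Among 10 other proteins with acetyltransferase activity, Esco2, which acetylates cohesin, had 900.2 and 895 in high and 692 and 783 in low MMP cells (0.29, SE 0.10). Naa40, which acetylates the N-terminus of histones H2A and H4, had 905 and 939.8 against 1069.7 and 1159.7 (-0.27, SE 0.08). Groups were apart for both genes, in opposite directions.

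Of the 9 readers of acetylated histones, Mllt3, a YEATS domain protein of the super elongation complex, had 934 and 941 normalized reads in high and 762 and 754 in low MMP cells. Its difference was 0.31 (SE 0.07, 95% interval 0.11 to 0.51, adjusted p = 0.472 in limma), and the 2 libraries of each group were nearly equal. The BET protein gene Brd3 had 1837 and 2092 against 2220 and 2139 (-0.15, SE 0.10), the most negative value of the list. Brd3 was at -0.06 without high MMP 1 and at -0.25 without high MMP 2.

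After Ing4, the largest differences among partner genes with a mean of 10 or more belonged to the large subunits of CAF-1, the chaperone that places newly acetylated histones H3 and H4 on replicating DNA. Chaf1b had 1056 and 839 normalized reads in high and 1343 and 1400.5 in low MMP cells (-0.54, SE 0.14), and Chaf1a, named after its value was seen, 2778 and 3035 against 4055 and 4032 (-0.48, SE 0.09). Neither passed after adjustment over all genes (0.472 in limma for both; 0.269 and 0.173 in DESeq2). The highest value among these 8 chaperone and partner genes was 0.16 (SE 0.12), that of Asf1b, a chaperone of histones H3 and H4. Asf1b had 1618 and 1331 against 1268 and 1360. It was at 0.02 without high MMP 1 and at 0.30 without high MMP 2. Rbbp7, the partner subunit of HAT1 itself, named for that role after its value was seen, was at 0.04 (SE 0.11).

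Cell cycle genes moved between the same libraries. Of 43 genes of a standard S phase list, which shares Chaf1b and Nasp with the histone chaperones, 25 were lower and 0 higher at an unadjusted p under 0.05 (9.96% of all genes in either direction), the median was -0.35 and DESeq2 called 9. The list summed to 117555 and 99923 normalized reads in high and to 139281 and 141669 in low MMP cells. Ung, the uracil glycosylase and the S phase gene furthest apart, had 306 and 167 in high and 826 and 869 in low MMP cells (-1.90, SE 0.31). Of 54 genes of the G2/M list, 30 were higher and 0 lower, the median was 0.32 and DESeq2 called 18. Its sum was 264836 and 274755 in high and 203016 and 209034 in low MMP cells, and Ube2c, the ubiquitin-conjugating enzyme of the anaphase-promoting complex, was furthest apart (4946 and 4777 against 1879 and 2087; 1.30, SE 0.09). After adjustment, limma and edgeR called 0 genes of either list, and DESeq2 called 0.985% of all genes it tested. For Ung and Ube2c the adjusted p was 0.472 each in limma, and 0.117 and 0.0685 in edgeR. The part of the cell cycle shifts in the values of the chaperones and of Esco2 was not tested.

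**Figure D5:**
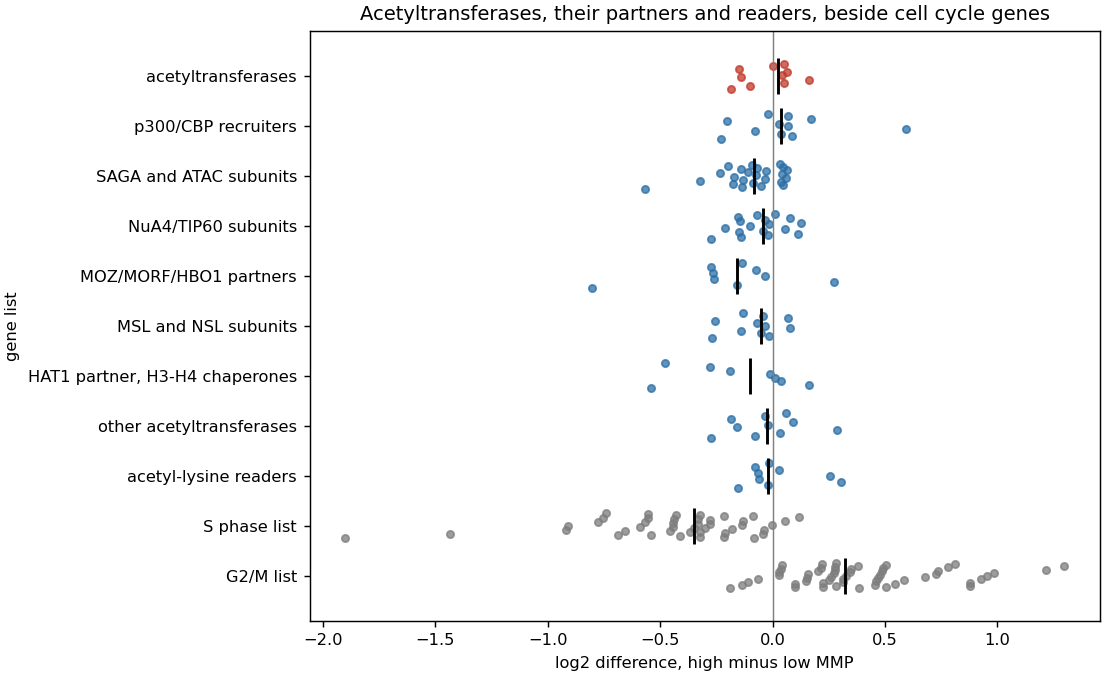
Log2 difference between high and low MMP cells for each acetyltransferase (red), each gene of the 8 partner and reader lists (blue) and the cell cycle lists (grey), with list medians as black lines. The acetyltransferases lie between -0.18 and 0.16 with a median of 0.02, which falls below 0 when any 1 library is left out, and the S phase and G2/M lists centre on -0.35 and 0.32.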

How the data were processed

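Per the labels and the methods, cells were sorted on MitoSpy Red, 200 ng of RNA entered a stranded mRNA preparation, and the authors aligned paired reads to GRCm38 (mm10) with STAR; HTSeq is also named in their notes. Versions and annotation release are not given in the sources used here. The deposited values are a normalized signal per gene (library total 20000000, genes above 0 in at least 2 of 4 samples), with 0 columns of other samples. Values were whole multiples of 1 step, and whole reads came out for 100% of values (tolerance 0.01). Symbols and lengths came from GENCODE M21 (19993 of 20197 identifiers matched).

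log2(value + 1) was tested with limma 3.58.1 (eBayes with trend, R 4.3.3, two-sided), adjusted by Benjamini-Hochberg over 20197 genes at 0.05. This scale understates changes of low genes. edgeR 4.0.16 and DESeq2 1.42.0 on recovered reads, other pseudocounts, filters, scalings and left-out libraries were alternatives. The fits were tested on simulated data.

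Members and lists were chosen with earlier results of these data known. Named were all members, per list the gene furthest in each direction (mean at least 10), the furthest S and G2/M gene, and the 3 profiles nearest to the member with the largest difference.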

Additional observations from a re-analysis of the deposited data

How the results depend on the processing

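Over 18 alternatives, 171 of 180 member differences kept their direction, and the other 9 turned only where 1 library was left out. Other filters, the fit without trend and the limma blocks leave the difference itself unchanged, so its direction could not turn there. With all 4 libraries 0 members were called (smallest adjusted p 0.370, in edgeR with the crossed block described below). The ranges without 1 library were -0.00799 to 0.335 for Crebbp, -0.0896 to 0.0933 for Kat5, -0.0640 to 0.168 for Kat6a, -0.133 to 0.221 for Kat6b, -0.0297 to 0.159 for Kat7, -0.225 to 0.0207 for Hat1 and -0.0812 to 0.424 for Cited2. Over all genes, calls numbered 0 in limma and 118 in DESeq2. The sample titles share replicate numbers, the study's notes count independent experiments without tying the numbers to them, and deviations of same-numbered samples correlated at r = -0.421 over 12902 genes; with the number as a replicate block, edgeR called 52 genes and limma 0, and the smallest adjusted p of a member was 0.992 in limma. With crossed numbers as the block, edgeR called 621 genes, among them 0 members and 3 partner or reader genes (Chaf1a, Chaf1b and Mllt3). This block was chosen after seeing the data and does not follow the numbers of the titles. Its calls therefore cannot count as support for these 3 genes. The level of the highest over that of the lowest member was 35.8 per kb of merged exons, 18.1 per kb of the longest transcript and 11.6 with no length correction. Members had at least 298 normalized reads in every library, and the counting standard deviation of a difference between replicates was at most 0.11 in log2.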

Other observations

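The ratio of the normalized reads of Ep300 to those of Crebbp was 2.00 and 2.03 in high MMP cells and 2.77 and 2.37 in low MMP cells, so that it was lower in both high MMP libraries (log2 difference -0.35, exact permutation test, two-sided, p = 0.333, the smallest that 2 against 2 samples can give). Leaving out each library in turn gave -0.46 to -0.23. The ratio was looked at after the values of both genes were seen, and it is a ratio of genes with transcripts of similar length that moved together between the high MMP libraries. The other paralog ratios overlapped between the groups: Kat2a over Kat2b was 4.64 and 5.21 in high and 4.82 and 5.05 in low MMP cells, and Kat6a over Kat6b was 5.83 and 5.82 in high and 5.55 and 6.04 in low MMP cells.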
